A study of Homo sapiens with 9 samples.

Results

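Nascent transcription was compared between PCIF1-KO clone 2 and PCIF1-KO clone 1, a pair of knockout clones of the human melanoma cell line MEL624. Both clones carry the same genotype label, and the comparison describes how far they differ from each other. A gene was compared where its mean normalized count over both clones was at least 10, which kept 17098 of the 58336 genes listed, 12506 of them protein-coding. The ratio of clone 2 to clone 1 was taken after adding 1 count to each, and a gene is described as 2-fold higher or lower where the log2 ratio reached 1 in size. The study comprised 9 PRO-seq libraries, with 3 replicates each of MEL624 cells with wild-type PCIF1 and a random sgRNA (called control here), of clone 1 and of clone 2. Both knockout groups carry the label PCIF1 KO with no further allele, guide or agent, and each of them is a single clone. The labels do not say whether the control was itself grown from a single cell.

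Each group had a single mean value for every gene. The ratios below therefore carry neither an error nor a test, and it is not known which of them exceed the spread between replicates. In these bulk libraries, transcription in fewer cells and a lower rate in each cell cannot be told apart.

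PRO-seq lets engaged RNA polymerases add a labelled nucleotide to their transcripts in permeabilized cells, so that the sequenced RNA marks where polymerases are at work and not how much mature RNA has accumulated. PCIF1 binds the phosphorylated tail of RNA polymerase II and methylates the first transcribed adenosine of capped mRNA, which yields the cap-adjacent base m6Am. Cells grown from single founders can also carry differences that the founders had before or gained during cloning, and a clone is known to hold silenced or active genes stably through division.

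PCIF1 itself was transcribed in both clones, at 269.6 normalized counts in clone 1 and 239.3 in clone 2, against 239.5 in control. The log2 ratio of clone 2 to clone 1 was -0.17. A coding edit need not alter the transcription of its gene, so these levels check nothing about the labels.

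Across all genes the clones lay close together. The median log2 ratio of clone 2 to clone 1 was 0.0019, and 91.95% of the genes lay within 1.5-fold. At least 2-fold higher in clone 2 were 187 genes (1.09%), of which 116 were protein-coding and 39 long noncoding. At least 2-fold lower were 140 genes (0.819%), of which 83 were protein-coding and 29 long noncoding. Both directions together came to 1.91% of the genes. The same 17098 genes, set against control, gave 450 higher (2.63%) and 172 lower (1.01%) in clone 1, and 642 higher (3.75%) and 241 lower (1.41%) in clone 2. These comparisons share the values of the clones and of the control, so they are given only side by side.

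The 2-fold differences lay mostly among weakly transcribed genes. Of 5172 genes with a mean of 10 to 50 counts, 5.07% were 2-fold off, against 0.848% of 6606 genes from 50 to 200 counts and 0.186% of 4845 genes from 200 to 1000. Among the 475 genes above 1000 counts, 0 were 2-fold off. At a mean of at least 50 counts, 43 genes were higher (0.361%) and 22 lower (0.184%). At a mean of at least 200, 6 were higher (0.113%) and 3 lower (0.0564%). Just inside the limit of 10 counts lay KRT86 at a mean of 10.01 and just outside it GVINP1 at 9.999. Just inside the 2-fold limit lay ATP10A at a log2 ratio of -1.0006 and just outside it ZNF442 at -0.9989.

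**Figure D1:**
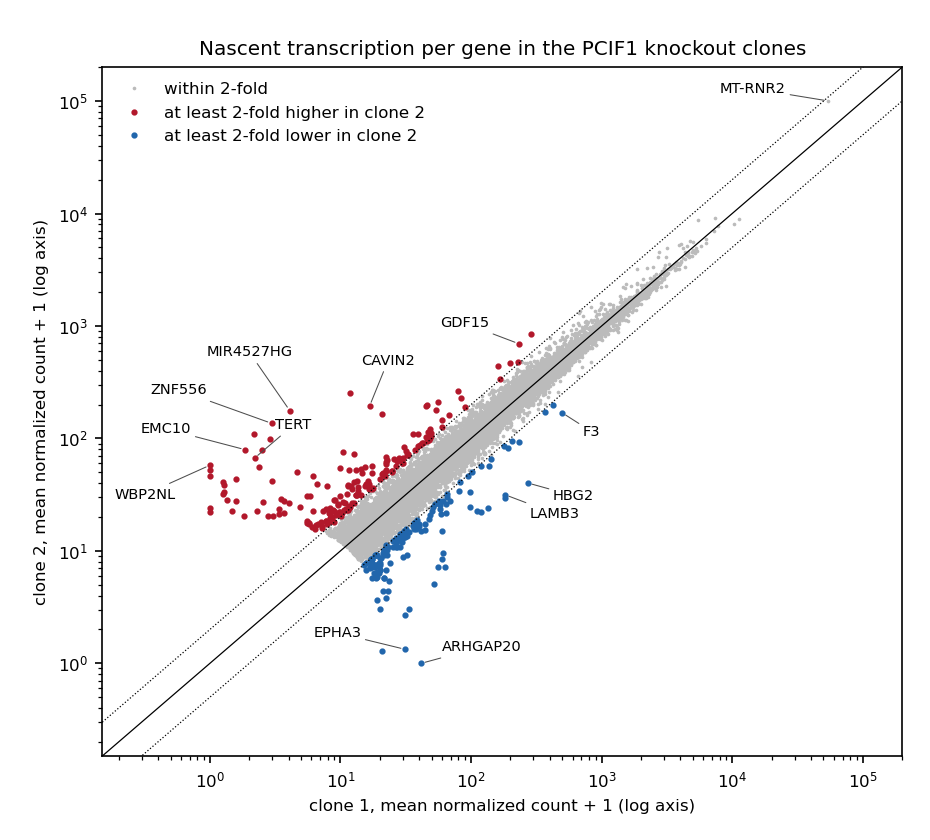
Each of 17098 genes is a point, with its mean normalized count plus 1 in clone 1 on the horizontal and in clone 2 on the vertical log axis. The solid line marks equal levels and the dotted lines 2-fold, with 187 genes coloured as higher and 140 as lower in clone 2; the points scatter more widely at the low end, and several genes with over 20 counts in clone 2 lie at the far left with almost none in clone 1.

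The points at the far left of the plot of the clones were genes that were almost silent in clone 1. With at most 3 counts in the silent clone and at least 20 in the other, limits chosen after the values were seen, 28 genes were near silent in clone 1 alone and 5 in clone 2 alone. The 28 genes lay on 14 chromosomes, and 19 of them were protein-coding. Their ratios would rest on the added count, so the text gives only their levels.

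Some of these genes were active in control and in clone 2 and near silent in clone 1. EMC10 belongs to a complex that inserts proteins into the membrane of the endoplasmic reticulum. It was at 130.4 counts in control cells, 0.860 in clone 1 and 78.5 in clone 2. ZNF556, a zinc finger gene, was at 69.0, 1.97 and 135 counts in the same order. WBP2NL, which encodes a sperm-head protein, was at 30.2 counts in the control, 0 in clone 1 and 56.7 in clone 2. In each case the control lay near clone 2, and clone 1 stood apart. TERT, the catalytic subunit of telomerase, was at 26.2 counts in control cells, 1.2002 in clone 1 and 65.9 in clone 2. ELMO1, which acts with DOCK proteins to activate the GTPase Rac, was at 29.1, 0.287 and 37.6. MS4A13, of the MS4A family of membrane proteins, was at 29.2, 0.258 and 39.6, and GSPT2, a translation termination factor, at 20.9, 0.588 and 26.6. These were the 7 of the 28 genes with at least 20 counts in control.

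In 13 of the 28 genes the control too had at most 3 counts, so that clone 2 stood apart. CHRDL1, an extracellular antagonist of bone morphogenetic proteins, was at 1.137 counts in the control, 0.588 in clone 1 and 42.8 in clone 2. FLRT3, a membrane protein of cell adhesion, was at 0.363, 0.260 and 31.3. The zinc finger gene ZNF718 was listed at 0 in control and in clone 1 and was at 51.8 in clone 2. CNTNAP4, a neuronal adhesion protein, was also listed at 0 in both and was at 45.2 in clone 2. In the other 8 genes the control lay between 3 and 20 counts, as for the zinc finger genes ZNF560 (11.6, 1.90 and 97.3 in control, clone 1 and clone 2) and ZNF525 (17.6, 1.51 and 78.1).

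The 5 genes near silent in clone 2 alone had various levels in control. ARHGAP20, a GTPase-activating protein, was at 5.20 counts in control and 40.5 in clone 1, and was listed at 0 in clone 2. EPHA3, an ephrin receptor, was listed at 0 in control and was at 30.2 in clone 1 and 0.334 in clone 2. H1-1, a linker histone gene of the histone cluster on chromosome 6, was at 59.8, 30.2 and 1.70. The zinc finger gene ZMAT1 was at 28.8, 21.4 and 2.78, and the receptor pseudogene OR51AB1P at 2.499, 32.3 and 2.05. Clone 2 was the group that stood apart for H1-1 and ZMAT1, and clone 1 for EPHA3 and OR51AB1P.

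**Figure D2:**
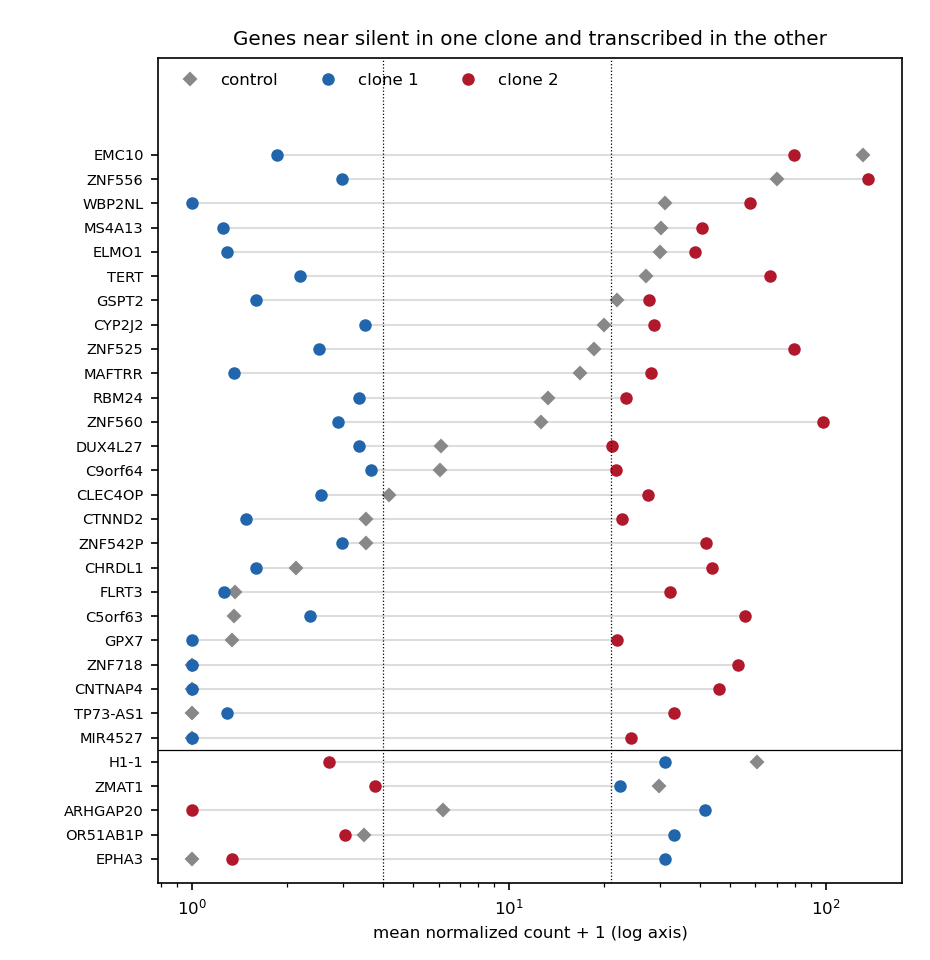
Mean normalized counts plus 1 (log axis) of the genes with a symbol that were near silent in a single clone, with the control as a diamond and the clones as circles; the upper block holds genes near silent in clone 1, the lower block genes near silent in clone 2, and the dotted lines mark the limits of 3 and 20 counts. The control diamond lies near clone 2 for EMC10, ZNF556 and WBP2NL and on the clone 1 side for FLRT3, ZNF718 and CNTNAP4.

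The bases before the start sites of these genes show whether they have the CpG-rich promoters of most widely active genes. The 4 shown are those with the highest count in the active clone, 2 for each direction, among genes whose start is the same in RefSeq and GENCODE. Each is the stretch of 250 bases before the RefSeq start (GRCh38.p14), read 5′ to 3′ on the gene's strand, with each CpG in capitals. They are ZNF556 (chr19:2867085-2867334, plus strand), ZNF560 (chr19:9498617-9498866, minus strand), H1-1 (chr6:26017788-26018037, minus strand) and EPHA3 (chr3:89107371-89107620, plus strand).
ZNF556: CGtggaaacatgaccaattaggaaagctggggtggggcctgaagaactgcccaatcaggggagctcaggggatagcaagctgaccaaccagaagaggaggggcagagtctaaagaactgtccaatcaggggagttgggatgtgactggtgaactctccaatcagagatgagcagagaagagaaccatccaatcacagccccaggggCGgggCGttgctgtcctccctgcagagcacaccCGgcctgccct
ZNF560: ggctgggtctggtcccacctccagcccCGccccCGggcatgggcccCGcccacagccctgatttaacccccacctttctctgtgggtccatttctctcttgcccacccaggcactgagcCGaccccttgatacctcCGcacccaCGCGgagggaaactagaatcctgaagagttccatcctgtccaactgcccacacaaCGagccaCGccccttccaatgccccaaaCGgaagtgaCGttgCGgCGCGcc
H1-1: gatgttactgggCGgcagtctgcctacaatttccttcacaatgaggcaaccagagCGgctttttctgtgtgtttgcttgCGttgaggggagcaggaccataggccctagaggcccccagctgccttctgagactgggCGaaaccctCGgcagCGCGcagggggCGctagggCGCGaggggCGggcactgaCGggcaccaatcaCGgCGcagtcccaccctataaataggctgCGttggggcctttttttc
EPHA3: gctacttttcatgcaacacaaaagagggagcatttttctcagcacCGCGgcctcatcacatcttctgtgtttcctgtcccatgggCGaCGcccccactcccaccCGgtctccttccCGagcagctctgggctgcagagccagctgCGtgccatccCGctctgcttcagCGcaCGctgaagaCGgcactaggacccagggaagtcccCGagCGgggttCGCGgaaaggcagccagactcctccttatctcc

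The stretch before ZNF556 holds 4 CpGs, that before ZNF560 14, that before H1-1 15 and that before EPHA3 15. The stretch of H1-1 also contains the letters TATAAA, and those of ZNF556, ZNF560 and H1-1 contain CCAAT or its reverse complement. Counted over 300 bases, from 250 before to 50 after the start, the near-silent genes did not all share CpG-poor promoters. The 19 genes near silent in clone 1 that matched a RefSeq promoter ranged from 0 CpGs (ZNF718) to 36 (TERT and CHRDL1), with a median of 24. For EMC10 the count was 29. The median over all 11466 compared genes with such a window was 26.

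Over all genes that were 2-fold off, the CpG medians lay below that of the compared genes as a whole. The median was 21 CpGs for 120 genes that were higher in clone 2 and 14.5 for 68 genes that were lower. It was 22 for the 2380 compared genes with a mean below 50 counts. At a limit of 50 counts it was 20 for 30 higher genes and 21 for 12 lower genes, so the gap between the directions was not kept. Of 701 genes with 0 to 4 CpGs in the window, 3.00% were 2-fold higher and 1.71% lower. Of 4376 genes with 30 or more, 0.846% were higher and 0.343% lower. The letters TATAAA, searched on both strands, were in 12.5% of the windows of the higher genes, 11.8% of the lower genes and 5.78% of all. Among compared genes with a mean below 50 counts the share was 6.64%. The letters CCAAT, on both strands, were in 35.8% of the higher genes, 27.9% of the lower genes and 37.1% of all. The searches did not account for overlap between these motifs. The start base was A, the base that PCIF1 methylates next to the cap, in 45.8% of the higher genes, 51.5% of the lower genes and 45.6% of all. A match of letters describes the window and shows no binding site.

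The longest run of neighbouring genes that were lower in clone 2 lay in the beta-globin cluster on chromosome 11. There 11 successive compared genes, from 5253188 to 5678434 (GRCh38), were at least 2-fold lower. HBG2, a gene of fetal gamma-globin whose annotated span reaches far upstream through the olfactory receptor genes, was at 38.6 counts in control cells, 272 in clone 1 and 39.1 in clone 2, a log2 ratio of -2.77. OR51B5, an olfactory receptor gene that overlaps it on the same strand, was at 21.6, 181 and 28.6 (-2.62). OR51B4 was at 8.63, 54.9 and 6.16, and OR51B2 at 6.81, 50.7 and 4.10. In all of these clone 1 was high and the control lay close to clone 2.

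The lower level in clone 2 lay on the minus strand. All 8 compared minus-strand genes within the span of HBG2 were at least 2-fold lower, and apart from the near-silent OR51AB1P their log2 ratios ran from -3.34 for OR51B2 to -2.002 for OR51I1. They include the pseudogenes OR51A10P (16.3, 134 and 22.8 counts in control, clone 1 and clone 2), OR51B8P (14.1, 117 and 21.04) and OR51K1P (11.6, 110.1 and 21.4), and the receptor gene OR51I1 (14.02, 97.3 and 23.5). The plus-strand receptor genes in the same span were close to 0: OR52D1, the highest in clone 1, was at 3.44 counts there and at 0.334 in clone 2. The globin genes HBB, HBD, HBG1 and HBE1 were below the limit of 10 counts, at 0.939, 3.18, 2.33 and 3.81 counts in clone 1. Since these genes overlap on 1 strand, reads of a single transcript may be counted under several names, and the run is 1 stretch of transcription more than 11 separate genes.

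The longest run that was higher in clone 2 was a noncoding locus on chromosome 18, from 47285725 to 47594550. MIR4527HG, the host gene of the microRNA miR-4527, was at 0.684 counts in the control, 3.09 in clone 1 and 176 in clone 2. The microRNA gene MIR4527 itself was listed at 0 in control and clone 1 and was at 23.2 counts in clone 2. A pair of unnamed genes in the same span completed the run of 4. PRO-seq reads within the microRNA gene come from the host transcript and do not measure the mature microRNA, whose RefSeq sequence is given with its seed (bases 2 to 8) in capitals.
hsa-miR-4527: uGGUCUGCaaagagaugacugu

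Among genes with a symbol and a mean of at least 50 counts, LAMB3 had the lowest ratio outside chromosome 11. LAMB3, the beta chain of an epithelial laminin of basement membranes, was at 199.7 counts in control cells, 181 in clone 1 and 30.6 in clone 2, a log2 ratio of -2.53. F3, which encodes tissue factor, the initiator of blood coagulation, was at 279, 498 and 168 (-1.56). For LAMB3 the control lay close to clone 1, whereas for F3 clone 1 was above and clone 2 below the control. NPAS2, a transcription factor of the circadian clock, was at 399, 205 and 94.3 (-1.11), with both clones below control. HSPB1, a small heat shock protein, was at 466, 424 and 198 (-1.10). UBQLN2, a ubiquitin-binding shuttle to the proteasome, was at 140.1, 141 and 64.9 (-1.10). In HSPB1 and UBQLN2 clone 1 was within 1.5-fold of control and clone 2 was lower.

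At means above 200 counts the lowest ratios after F3 and HSPB1 were those of TLR4, LIF, FAT1 and TAF1. TLR4, the receptor for bacterial lipopolysaccharide, was at 454 counts in the control, 366 in clone 1 and 171 in clone 2 (-1.10). LIF, a cytokine of the interleukin-6 family, was at 405, 368 and 199 (-0.88). FAT1, a large atypical cadherin, was at 659, 661 and 361 (-0.87), and TAF1, the largest subunit of the general transcription factor TFIID, at 289, 326 and 182 (-0.84). LIF, FAT1 and TAF1 fell short of the 2-fold limit. The remaining genes of the 15 lowest with a mean of at least 50 included CCDC190 (155, 192 and 81.5 counts), the noncoding LINC01589 (47.5, 79.6 and 33.1) and the U1 small nuclear RNA gene RNU1-2 (175, 234 and 92.1). RNU1-2 has near-identical copies, so its reads may be shared with them.

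Among genes with a symbol and a mean of at least 50 counts, CAVIN2 and FHAD1 had the highest ratios after ZNF556 and MIR4527HG. CAVIN2 helps to form caveolae, small pits of the plasma membrane. It was at 15.7 counts in clone 1 and 193 in clone 2, a log2 ratio of 3.54, and was listed at 0 in control. FHAD1, a protein with a forkhead-associated domain, was at 25.9, 19.9 and 165 (3.00). TLE3, a corepressor of the Groucho family, was at 165, 45.0 and 196 (2.10). SLC1A3, a glutamate transporter of glial cells, was at 133, 54.6 and 212 (1.94), and the zinc finger gene ZIK1 at 49.8, 44.1 and 192 (2.10). In TLE3 and SLC1A3 clone 1 was below the control, and clone 2 was above it by less than 2-fold. In FHAD1 and ZIK1 clone 1 lay near the control and clone 2 was above both.

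HSPA12A, a distant member of the heat shock protein 70 family, was at 113 counts in control cells, 78.3 in clone 1 and 262 in clone 2 (1.73). HKDC1, a hexokinase, was at 33.0, 53.2 and 178 (1.73), and SRGAP3, another GTPase-activating protein, at 44.7, 38.0 and 109.6 (1.502). NKX2-4, a homeobox gene, was at 2.62, 29.5 and 83.4 (1.47). FAM9B, expressed mainly in testis, was at 213, 34.7 and 108 (1.61), so that both clones were below control. Of the strongly transcribed genes, GDF15, a stress-induced cytokine, had the highest ratio among nuclear genes with a mean above 200, at 206, 231 and 694 counts (1.58). OGFRL1 was at 164, 198 and 469 (1.24), ZNF804A at 342, 227 and 482 (1.08) and ACY1, an aminoacylase, at 179.7, 166 and 339.6 (1.03).

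The control was not on the side of either clone as a rule. Of the 187 genes that were higher in clone 2, the control lay nearer clone 1 in 111 and nearer clone 2 in 76 on the log2 scale. It was below both clones in 49, between them in 62 (nearer clone 1) and 51 (nearer clone 2), and above both in 25. Of the 140 genes that were lower in clone 2, the control lay nearer clone 1 in 77 and nearer clone 2 in 63, and it was below both in 24 and above both in 36. With means of at least 50 counts, the control lay nearer clone 1 in 31 of 43 higher genes and in 10 of 22 lower genes.

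Part of the difference followed position along chromosomes. The median log2 ratio was 0.31 over 638 genes of chromosome 10 and 0.17 over 976 genes of chromosome 3. On every other nuclear chromosome it lay between -0.03 and 0.02. Within chromosome 10 the higher ratio began at 40 Mb, a boundary set after the values were seen: over 479 genes beyond it the median was 0.41, a level 1.33-fold higher, and 92.1% were above 0. Within chromosome 3 it covered the first 80 Mb, where 460 genes had a median of 0.40 and 92.4% were above 0. Clone 1 had medians of 0.0048 and 0.0015 against control over these stretches, and clone 2 had 0.43 and 0.40, so clone 2 was the group that stood apart.

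All 10 bins of 10 Mb on chromosome 10 beyond 40 Mb and all 8 on the first 80 Mb of chromosome 3 had medians of at least 0.2. The highest were 0.69 for 40 genes in the first 10 Mb of chromosome 3 and 0.67 for 17 genes from 50 to 60 Mb of chromosome 10. Of the 257 bins on other nuclear chromosomes 0 reached it, with medians from -0.18 to 0.12. These stretches hold 16 2-fold higher genes among 479 on chromosome 10 and 9 among 460 on chromosome 3. Over all compared genes the share was 1.09%. HSPA12A and HKDC1 lie in the stretch of chromosome 10 and SRGAP3 and ACY1 in that of chromosome 3. FAS, the death receptor and p53 target, lies on chromosome 10 and was at 130.2 counts in the control, 121 in clone 1 and 221 in clone 2 (0.87). MITF, the master regulator of melanocytes, lies on chromosome 3 within the stretch and was at 169, 142 and 259 (0.86). Neighbouring genes are not independent of each other, and the part of position in the ratio of any single gene was not tested.

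**Figure D3:**
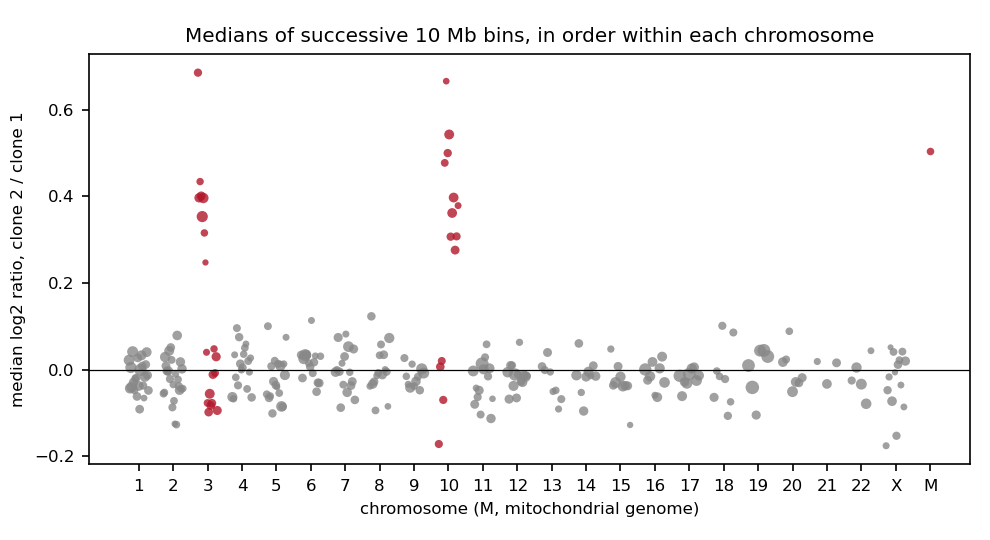
Median log2 ratio of clone 2 to clone 1 in successive bins of 10 Mb with at least 10 compared genes, in order along each chromosome (M is the mitochondrial genome), with larger points for more genes and red for chromosomes 3, 10 and M. The bins of the first 80 Mb of chromosome 3 and of chromosome 10 beyond 40 Mb lie between 0.25 and 0.69, and those of other nuclear chromosomes between -0.18 and 0.12.

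Transcription of the mitochondrial genome was higher in clone 2. This genome is transcribed by its own polymerase from promoters on either strand, and its long transcripts are cut into rRNAs, mRNAs and tRNAs. The 28 compared mitochondrial genes had a median log2 ratio of 0.50, with 26 above 0 and 6 at least 2-fold higher (21.4%, beside 1.09% of all compared genes). Their summed count, with 37 genes listed, came to 105494 in control, 81942 in clone 1 and 139974 in clone 2, or 2.81%, 2.18% and 3.66% of all counts. MT-RNR2, the large ribosomal RNA, was at 72995, 54568 and 100148 counts, and alone made up most of each sum. The control lay between the clones in both, below clone 2 and above clone 1.

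Among the tRNA genes, MT-TF was at 334 counts in control cells, 288 in clone 1 and 848 in clone 2 (1.56), MT-TV at 199.6, 161 and 439 (1.44) and MT-TS2 at 108, 83.1 and 228 (1.44). MT-TF and MT-TV flank the small ribosomal RNA gene MT-RNR1, which was at 6372, 4719 and 5752 (0.29). Of the mRNAs of the respiratory complexes, MT-ND5 was at 5843, 5454 and 8748 (0.68), MT-ND4 at 2728, 2734 and 4534 (0.73) and MT-CYB at 4131, 3905 and 5269 (0.43). MT-ND6, the mRNA of the other strand, was at 648, 466 and 462 (-0.01). The 24 genes of the plus strand had a median of 0.52 and the 4 of the minus strand 0.28. By contrast, 77 nuclear genes of oxidative phosphorylation, a list added after the values were seen, had a median of 0.06. Of these 77 genes 0 were 2-fold off in either direction, beside 1.91% of all compared genes.

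Small nucleolar RNAs, which guide the modification of ribosomal RNA, were also higher in clone 2. The 116 compared snoRNA genes had a median log2 ratio of 0.38, with 92 above 0, 7 at least 2-fold higher (6.03%) and 0 lower. Over all compared genes 1.09% were higher and 0.819% lower. Box C/D genes (59 named SNORD) had a median of 0.45, box H/ACA genes (46 named SNORA) 0.38 and the 11 scaRNAs, their counterparts in Cajal bodies, 0.32. Most snoRNAs lie in introns of other genes. In 98 of 118 pairs of a snoRNA or scaRNA with the gene around it the ratio of the small RNA was the higher. The medians over the pairs were 0.38 for the small RNAs and 0.004 for the genes around them. The pairs hold 91 different surrounding genes, so some of these entered more than once. SNORD82 was at 28.01 counts in the control, 38.0 in clone 1 and 84.6 in clone 2 (1.136), while NCL around it, the gene of nucleolin, was at 2471, 3579 and 3587 (0.003). SCARNA8 was at 57.2, 48.3 and 111 (1.18) within HAUS6, whose own log2 ratio was 0.08. Only 7 snoRNA genes had no compared gene over them on the same strand, and their median was 0.09. Their log2 ratios varied widely, so this median does not stand for each of them. U8 was at 1.06, SNORD13 at 0.99 and SNORA11F at 0.29. SNORD3A was at 0.09, SNORD3B-1 at -0.002, SNORD3B-2 at -0.15 and a U3 gene at -0.61.

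Other small RNAs had medians nearer 0 or differed by family. The 50 snRNA genes and pseudogenes had a median of -0.08, with the 7 of U5 at 0.38 and the 12 of U6 at -0.44. Most of the U6 entries are named as pseudogenes. Of those that are not, RNU6-2 was at 0.25, RNU6-7 at 0.29 and RNU6-8 at -0.43, so the median does not describe the U6 genes proper. RNU5A-1, of the spliceosomal U5 family, was at 1915 counts in control cells, 1876 in clone 1 and 3214 in clone 2 (0.78). The 18 genes of 5S rRNA and its pseudogenes had a median of 0.23, with 4 at least 2-fold higher (22.2%, beside 1.09% of all compared genes). Genes of at most 200 bases had a median of 0.17 over 315 genes, and of 0.03 over the 188 left without snoRNAs, scaRNAs and mitochondrial genes. All these classes were chosen after the values were seen. They include near-identical copies among which reads may be split, and short stable RNAs can enter a nascent library; the part of either was not tested.

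**Figure D4:**
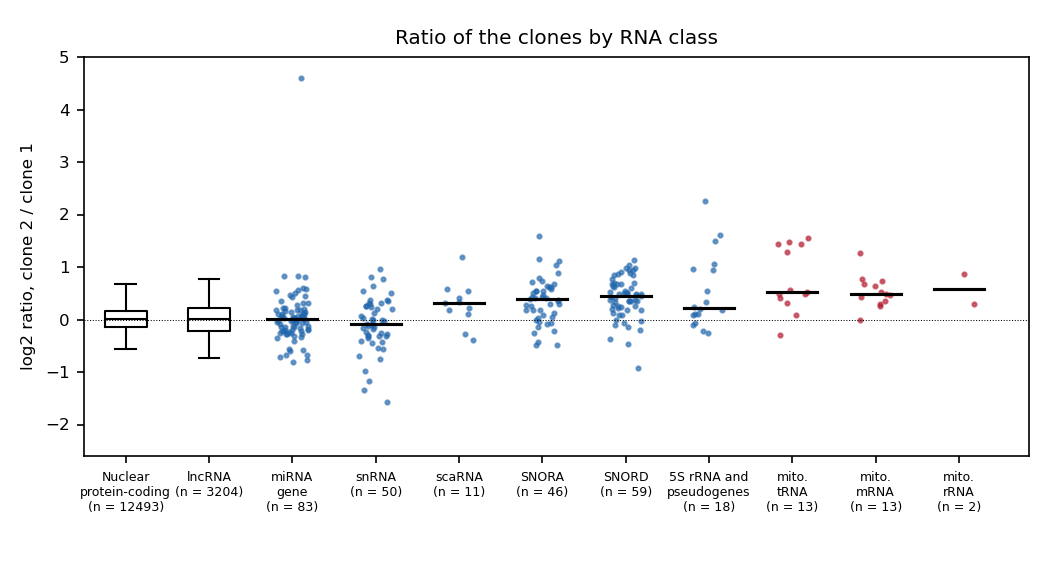
Log2 ratio of clone 2 to clone 1 by class of RNA, with boxes for the quartiles and whiskers for the central 95% of genes in the largest classes, and points for single genes with a bar at the median in the others. The bars of mitochondrial, SNORD and SNORA genes lie between 0.38 and 0.58, whereas nuclear protein-coding genes centre on 0.0034.

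Gene families that are regulated as clusters differed to a modest degree. The counts of 2-fold genes in these and the following lists stand beside 1.09% higher and 0.819% lower over all compared genes. Few or none in a short list therefore do not set it apart. The clustered protocadherins, adhesion molecules whose alternative promoters are switched on at random in single cells, had a median of -0.25 over 34 compared genes, with 27 not above 0 and 2 at least 2-fold lower. The PCDHB genes were lowest, with a median of -0.53 and 12 of 13 not above 0. PCDHB10 was at 5.76 counts in the control, 20.7 in clone 1 and 4.70 in clone 2 (-1.93), and PCDHGA1 at 14.004, 35.6 and 14.6 (-1.23). In both the control lay close to clone 2. The PCDHA and PCDHG genes overlap each other on 1 strand, so their counts are not independent. PCDHGB1 went the other way, at 4.06, 36.4 and 58.1 (0.66). Single genes did not show where the control stood for the family. Summed over all 53 clustered protocadherins listed, the control reached only 798, below both clone 2 (1349) and clone 1 (1657). The homeobox genes of the HOX clusters, which set position along the body axis, had a median of 0.17 over 31 genes, with 20 above 0 and 0 at least 2-fold off. All 5 compared HOXD genes were above 0 (median 0.30), whereas 7 of 9 HOXB genes were not (median -0.16). HOXD9 was at 81.4, 77.3 and 109 counts (0.49) and HOXB2 at 577, 581 and 445 (-0.38).

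Zinc finger genes of chromosome 19, many of which encode repressors of repeated elements, had a median of 0.0039 over 222 genes, with 5 at least 2-fold higher and 1 lower. The 5 included ZNF556, ZNF560 and ZNF525, all near silent in clone 1, and ZNF880, which was at 36.1 counts in control cells, 12.1 in clone 1 and 30.7 in clone 2 (1.27). Genes named ZNF with a number, and ZIK1, were also counted anywhere in the genome. They made up 5 of the 28 genes near silent in clone 1, 10 of the 187 higher genes and 3 of the 140 lower genes. Of the 17098 compared genes they made up 444. Zinc finger genes with other names, such as ZMAT1, were not counted. Replication-dependent histones had a median of -0.02 over 56 genes, and H1-1 was the only member that was 2-fold off.

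Over 36 proliferation genes the median was -0.14, 31 were not above 0 and E2F8, a repressor of the E2F family, was the only one 2-fold off, at 71.1 counts in the control, 58.4 in clone 1 and 20.1 in clone 2 (-1.49). PLK1, a kinase of mitosis, was at 509, 565 and 418 (-0.44), and CDK1, on chromosome 10, at 351, 389 and 526 (0.43). Outputs of the MAPK pathway, which drives many melanomas, had a median of -0.17 over 20 genes with 12 not above 0. DUSP6, a phosphatase that restrains ERK, was at 3077, 2667 and 2223 (-0.26). DUSP5, in the shifted stretch of chromosome 10, was at 978, 872 and 1122 (0.36). Targets of YAP and TEAD, of which F3 is a member, had a median of -0.16 with 17 of 21 not above 0. CCN2, a matrix protein and a classical target, was at 2180, 2074 and 1785 (-0.22), and ANKRD1, on chromosome 10, at 222, 220.5 and 316 (0.52).

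Stress and immune lists contained single genes that stood apart. In the list of ATF4 and the unfolded protein response, 31 genes had a median of 0.05 and NUPR1, a stress-induced chromatin protein, was at 16.97 counts in control cells, 9.53 in clone 1 and 74.7 in clone 2 (2.84). DDIT4, an inhibitor of mTORC1 signalling that lies in the shifted stretch of chromosome 10, was at 972, 831 and 1480.2 (0.83). Over 24 p53 targets the median was 0.03, and GDF15 was the only one 2-fold off. Genes of the type I interferon response had a median of -0.13, with 20 of 28 not above 0 and 0 at least 2-fold off. OAS1, a sensor of double-stranded RNA, was at 47.3, 50.5 and 25.6 (-0.95). Among 19 NF-kB targets, with a median of -0.10, ICAM1, an adhesion receptor for leukocytes, was at 52.6, 177 and 84.2 (-1.06).

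The genes closest to the function of PCIF1 differed little, as did most compared genes. Over 38 genes of the cap and of the m6A or m6Am machinery the median was -0.01. Of these 38 genes 0 were 2-fold off, beside 1.91% of all compared genes. The extremes were -0.31 for IGF2BP2 (114, 118 and 94.8 counts in control, clone 1 and clone 2) and 0.43 for RBM15B (1068, 957 and 1290), which lies in the shifted stretch of chromosome 3. METTL3, the catalytic subunit of the m6A writer, was at 489, 491 and 471 (-0.06), and CMTR1, which methylates the ribose of the first nucleotide, at 127, 106 and 115 (0.12). Over 42 genes of polymerase II pausing and elongation the median was 0.09, with 29 above 0 and 0 at least 2-fold off. RTF1, an elongation factor, was at 254, 278 and 169.5 (-0.71). Ribosomal protein genes had a median of 0.04 over 80 genes.

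Receptors, matrix genes and lineage factors showed differences of single genes and not of whole lists. Over 29 receptor tyrosine kinases the median was -0.08, and EPHA3 and EPHB3 were 2-fold lower, the latter at 53.9 counts in the control, 93.2 in clone 1 and 44.9 in clone 2 (-1.04). Over 27 genes of laminins, integrins and the basement membrane the median was -0.10, and LAMB3 alone was 2-fold off. Of 17 collagens, COL6A3 was at 166, 58.5 and 146 (1.30), with clone 2 close to control. TGFB1, the cytokine, was at 67.3, 31.8 and 70.4 (1.12) among 18 genes of TGF-beta targets with a median of 0.0087. SOX2, a transcription factor from the list of neural crest and Schwann-like genes, was at 34.8, 10.6 and 51.5 (2.17). It lies on chromosome 3 outside the shifted stretch.

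**Figure D5:**
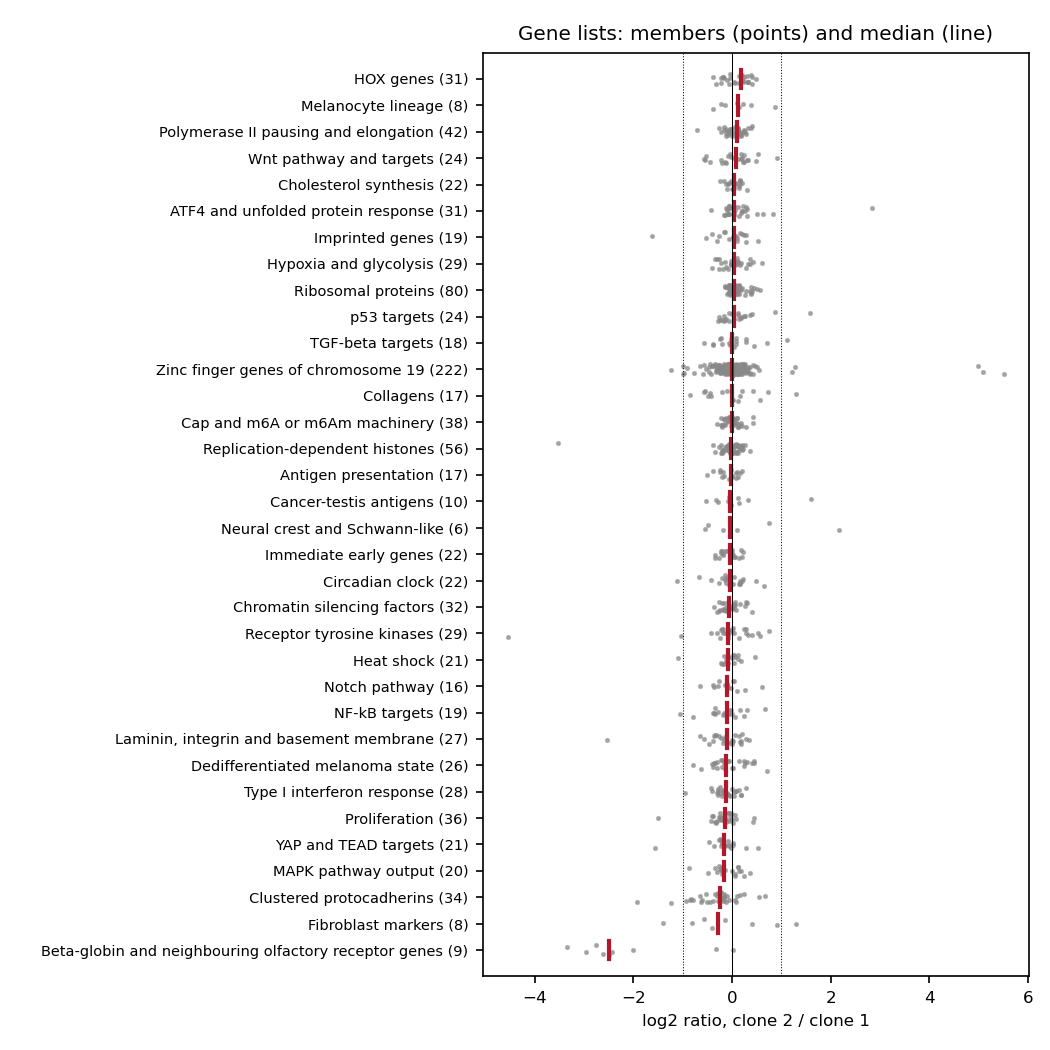
Log2 ratio of clone 2 to clone 1 for the compared members (points, their number in parentheses) of each gene list with at least 5 of them, with the median as a red bar and dotted lines at 2-fold. The beta-globin and olfactory receptor list has a median of -2.496, and the other medians lie between -0.28 (fibroblast markers) and 0.17 (HOX genes). Outside the globin list, few members differ beyond 2-fold.

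MEL624 cells of both clones showed few of the defining melanocyte genes. MITF and PAX3 were above 100 counts in both clones, whereas the pigment enzyme TYR was at 0 in both and SOX10 at 0 in clone 1 and 6.08 in clone 2. The 8 melanocyte markers, 3 of which reached the limit of 10 counts, summed to 373 counts in control cells, 458 in clone 1 and 517 in clone 2. MITF and PAX3 made up most of these sums and differed in opposite directions. MITF was at 142 in clone 1 and 259 in clone 2, and PAX3 at 287 and 221. The 6 fibroblast markers summed to 132, 113 and 129.95, the 5 keratinocyte and epithelial markers to 16.2, 11.99 and 5.82, and the 6 blood and endothelial markers to 39.3, 34.8 and 27.2. PDGFRB made up most of the fibroblast sums, at 111, 75.5 and 100 counts in control, clone 1 and clone 2. KRT14 and CD3E were at 0 in both clones. The part of any of these in the differences between the clones was not tested.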

How the data were processed

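PRO-seq was carried out on 9 libraries, 3 per group. The authors deposited a table with 1 value per group for each of 58336 genes. Per the file headers each value is the mean normalized count per kb of gene length, a signal that was scaled and averaged before deposit, so depth per library is not known. The header has 6 names and each line 5 cells, and the missing cell was taken to be the gene symbol, since for 64.4% of matched genes the cell after the identifier is the length of the merged exons (GENCODE release 44). Tools named in the submitters' processing notes are Bowtie 1.2.2, cutadapt 1.14, DESeq2 and featureCounts, and the builds are hg38, GRCh38.p12 and dm3. Not given in the sources used here are their roles, the strand setting and whether the Drosophila spike-in set the scale.

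Values were multiplied by length in kb to give counts. The ratio of the clones used a pseudocount of 1 and genes with a mean of at least 10. Exon lengths were used, so reads of introns may not enter the values. Symbols and positions are from GENCODE release 44 (GRCh38), and 117 compared genes had no match. Promoter and microRNA sequences are from RefSeq (GRCh38.p14), with 11466 of the compared genes matched. Named are PCIF1, the 15 highest and 15 lowest ratios at a mean of at least 50 counts, the 6 highest and 6 lowest at 200, 4 members of each of 37 lists with the largest ratio, and the genes at the limits. Genes outside this rule were named after their values were seen, as were the near-silent genes, RNA classes and stretches. The comparison and its lists were chosen with earlier results of these data known. The work used pandas 2.3.3, numpy 2.4.6 and scipy 1.17.1 in Python 3.11.15, with figures by matplotlib 3.10.9. The alternatives were rescaling by median of ratios, quantile normalization, pseudocounts of 0.5 and 5, no limit and a limit of 50 counts, values per kb, protein-coding genes only, genes with no same-strand overlap, and leaving out chromosomes 3 and 10. After the data were seen, leaving out mitochondrial and small nucleolar genes and other limits for near-silent genes were added.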

Additional observations from a re-analysis of the deposited data

How the results depend on the processing

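The 187 higher and 140 lower genes became 1054 and 1122 with no limit on low counts, 43 and 22 at a limit of 50 counts, 116 and 83 among protein-coding genes, 263 and 313 for values per kb, and 141 and 85 with a pseudocount of 5. The share of higher genes among those 2-fold off was 57.2% as reported, 45.7% per kb, 48.4% with no limit and 66.2% at 50 counts, so which direction is the more frequent depends on the limit and the unit. Without chromosomes 3 and 10, 154 were higher and 134 lower. The control lay nearer clone 1 in 602 of 1054 higher and 641 of 1122 lower genes with no limit. At 50 counts it did so in 31 of 43 and 10 of 22, and among protein-coding genes in 59 of 116 and 43 of 83. Of the lower genes it did so in 48 of 85 with a pseudocount of 5 and in 183 of 313 per kb. The 28 genes near silent in clone 1 became 2 at 50 counts, 14 per kb, 14 with at most 1 count and 12 with at least 40 in the active clone. The 5 near silent in clone 2 became 0, 9, 2 and 1 in the same order, and 11 with at most 5 counts. The melanocyte list had a median of 0.13 over 8 genes. It turned to -0.14 at 50 counts (5 genes) and -0.019 without overlapping genes (4 genes). The fibroblast list had a median of -0.28 over 8 genes, which turned to 0.40 at 50 counts (3 genes) and 0.62 per kb (2 genes). The median of the globin list turned to 0.027 without overlapping genes, where 1 gene was left. Of 196 named genes followed, 85 were 2-fold off as reported. Of these 85, 83 remained so under each of the settings that kept them, and 0 changed direction. A change of direction was not looked for in the named genes below 2-fold. Size factors by median of ratios were 1.01, 1.00 and 0.996 for control, clone 1 and clone 2.

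No paired analysis was possible because the table holds 1 mean per group; leaving out replicates could not be run for the same reason. Depth per library is unknown, and 5.07% of genes with 10 to 50 counts were 2-fold off against 0.186% of those with 200 to 1000.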
